A study of Mus musculus with 36 samples.

Results

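The Hox genes were taken by name, as every entry whose symbol is Hoxa, Hoxb, Hoxc or Hoxd followed by a number, which gave 39 of the 50509 gene symbols. The Hoxa cluster on chromosome 6 gave 11 of them, the Hoxb cluster on chromosome 11 gave 10, the Hoxc cluster on chromosome 15 gave 9 and the Hoxd cluster on chromosome 2 gave 9. Their RNA was measured in mouse embryonic fibroblasts (MEFs) prepared at embryonic day 12.5 to 13.5 from a strain that carries an mCherry reporter under the Myh6 promoter, a promoter of heart muscle, so every group shared that reporter. In the GHMT arm the cells were transduced with Gata4, Hand2, Mef2c and Tbx5, transcription factors of heart development which together reprogram fibroblasts towards heart muscle, and in the UI arm they were left uninfected. Each arm was cultured with 1% dimethyl sulfoxide (DMSO), a polar solvent, or untreated, and was sampled at days 2, 7 and 21, so that 36 libraries fell into 12 groups of 3. All groups were kept in StemPro34 medium with FGF2, FGF10 and VEGF, growth factors that were common to the groups compared. Nothing in the labels says that the 3 libraries of a group came from separate cultures or litters, and p-values measure only the spread between these libraries, which may be technical.

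Hox genes encode homeodomain transcription factors that give cells along the body and the limb their regional identity. The genes of a cluster lie on the chromosome in the order in which they are used, with low-numbered genes active towards the head and high-numbered genes towards the tail and the tips of the limbs, and equally numbered genes of different clusters are paralogs. Fibroblasts taken from different sites keep different Hox codes in culture, so that Hox RNA records where a fibroblast came from. MEFs are a mixture of cells from the embryo's body. In a bulk library fewer cells that use a gene and less RNA per cell cannot be told apart.

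The 250 bases before the start of 4 genes are shown because the results turn on them. These are Hoxa13 and Hoxd13, which stood higher in the GHMT arm, and the neighbours Hoxd9 and Hoxd8, whose rise with time passed the test there. The sequences are those of RefSeq on GRCm38.p6, at chr6:52260881-52261130 on the minus strand for Hoxa13 and, on the plus strand, at chr2:74667975-74668224 for Hoxd13, chr2:74697513-74697762 for Hoxd9 and chr2:74704365-74704614 for Hoxd8. They are written 5′ to 3′ along the gene, and capitals mark the single match in them to 5 searched motifs, AGGTGT in Hoxd9.
Hoxa13: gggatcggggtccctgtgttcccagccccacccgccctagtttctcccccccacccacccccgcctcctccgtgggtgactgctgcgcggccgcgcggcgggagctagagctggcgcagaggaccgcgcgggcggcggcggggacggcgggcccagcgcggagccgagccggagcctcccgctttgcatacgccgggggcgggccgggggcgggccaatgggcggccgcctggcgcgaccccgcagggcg
Hoxd13: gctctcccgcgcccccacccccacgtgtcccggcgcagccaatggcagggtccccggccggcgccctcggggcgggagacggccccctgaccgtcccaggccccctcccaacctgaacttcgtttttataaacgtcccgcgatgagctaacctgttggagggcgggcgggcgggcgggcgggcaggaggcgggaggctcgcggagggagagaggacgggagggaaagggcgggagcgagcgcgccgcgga
Hoxd9: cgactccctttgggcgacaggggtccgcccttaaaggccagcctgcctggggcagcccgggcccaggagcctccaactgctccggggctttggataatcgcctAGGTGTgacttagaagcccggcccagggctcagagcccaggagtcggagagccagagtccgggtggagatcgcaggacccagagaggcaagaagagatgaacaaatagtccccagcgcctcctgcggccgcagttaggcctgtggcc
Hoxd8: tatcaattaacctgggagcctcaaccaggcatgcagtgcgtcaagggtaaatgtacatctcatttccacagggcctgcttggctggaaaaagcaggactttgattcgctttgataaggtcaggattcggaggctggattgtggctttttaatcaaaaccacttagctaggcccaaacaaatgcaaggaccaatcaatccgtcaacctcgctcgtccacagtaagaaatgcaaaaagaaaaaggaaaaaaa
The 4 windows differed in composition. GC made up 80.0% of the Hoxa13 window, 74.4% of the Hoxd13 window, 65.2% of the Hoxd9 window and 44.4% of the Hoxd8 window, against a median of 52.4% over 32851 mouse promoters of the same length. The windows held 35, 31, 13 and 6 CpG dinucleotides in that order. RefSeq promoters matched 22 of the 39 Hox genes, with 24 windows. On both strands, the GATA core AGATAA was in 0 of the 24 windows and in 9.99% of all promoters, and the T-box core AGGTGT in 3 windows (Hoxd9, Hoxa10 and Hoxb4) and 11.8% of promoters. The MEF2 motif, CTA and TAG with 4 unspecified bases between them, was in 1 window (Hoxa6) and 3.20% of promoters. The Pbx-Hox motif TGATTNAT was in 2 windows (Hoxd11 and Hoxa2) and 2.82% of promoters, and the Meis motif TGACAG in 2 windows (Hoxa2 and Hoxa3) and 15.9% of promoters. In the Hox windows no 2 hits overlapped. These are matches of letters and not measured binding sites.

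Values are TPM, a measure of transcript abundance that is corrected for transcript length, so that levels of different genes can be set side by side. No read depth can be had from TPM, and how much counting error the low values carry is therefore unknown. In each library between 15776 and 18486 genes reached 1 TPM. The transduced factors checked the arm labels: Gata4 ran from 82.3 to 355 TPM in the 18 GHMT libraries and from 0.574 to 2.73 TPM in the 18 UI libraries, and the other factors separated the arms as well. All 8 fibroblast markers were detected in every group, with a summed level of 5006 to 8464 TPM in GHMT libraries and 7856 to 25702 TPM in UI libraries. The 6 cardiomyocyte markers summed to 412 to 5126 TPM in GHMT libraries and 2.31 to 5.91 TPM in UI libraries. The 6 macrophage markers summed to 28.9 to 249.5 TPM in GHMT libraries and 13 to 111 TPM in UI libraries. GHMT DMSO day 21 replicate 3, GHMT DMSO day 7 replicate 1 and UI untreated day 21 replicate 1 stood apart from their groups, and results that change without them are given both ways. The arms were deposited in separate tables, so the levels of the 2 arms are given beside each other and not tested, and arm and table cannot be told apart.

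In the Hox code of these fibroblasts, paralog groups 4 to 8 held the largest share. Most genes at the ends of the clusters were low. Summed over the 39 genes, Hox RNA came to a median of 191 TPM in GHMT libraries (155 to 248) and 185 TPM in UI libraries (156 to 213). Paralog groups 4 to 8 (15 genes) made up a median of 54.2% of the Hox sum in GHMT libraries and 59.5% in UI libraries. Their median sum was 107 TPM in GHMT and 111 TPM in UI libraries. Hoxc6 and Hoxd8 alone had medians of 28.9 and 18.6 TPM in GHMT and 27.8 and 23.9 TPM in UI libraries. Groups 9 to 12 (12 genes) made up 31.2% in GHMT and 30.9% in UI libraries, and the Hoxa and Hoxb clusters peaked there. Groups 1 to 3 (8 genes) made up 8.21% in GHMT and 8.26% in UI libraries. The 4 genes of group 13 made up 6.16% in GHMT (3.09 to 6.96%) and 0.978% in UI libraries (0.566 to 1.27%), with no overlap. By cluster, the Hoxb genes held a median of 20.7% of the Hox sum in GHMT libraries (16.3 to 24.5%) and 13.9% in UI libraries (12.6 to 16.4%), ranges that overlapped at their ends only.

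In the Hoxa cluster the peak lay at Hoxa9 and Hoxa10, and the genes on either side were lower. Hoxa2, a gene of the hindbrain and branchial arches, had a median of 2.24 TPM in GHMT libraries, against 1.30 TPM in UI libraries. Hoxa3 stood at 2.60 TPM in GHMT and 3.29 TPM in UI libraries, and Hoxa4 at 0.796 TPM in GHMT and 0.516 TPM in UI libraries. Hoxa5, Hoxa6 and Hoxa7, genes of the neck and upper trunk, had GHMT medians of 4.86, 3.84 and 7.07 TPM, against UI medians of 3.04, 3.15 and 9.45 TPM. The cluster was thus active through its middle in both arms. Hoxa9 and Hoxa10, which act in the lumbar trunk and the upper limb, had GHMT medians of 9.58 and 14.2 TPM and UI medians of 13.3 and 17.9 TPM. Hoxa11, a gene of the forearm and shank, had medians of 6.25 TPM in GHMT and 3.68 TPM in UI libraries. Hoxa13, a gene of hands, feet and the genital bud, closed the cluster with 3.53 TPM in GHMT and 0.538 TPM in UI libraries.

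The Hoxb cluster was highest at Hoxb9 and low at both Hoxb1 and Hoxb8. Hoxb1, a gene of a single hindbrain segment, had medians of 0.169 TPM in GHMT and 0.485 TPM in UI libraries, and its neighbour Hoxb2 2.58 TPM in GHMT and 1.92 TPM in UI libraries. Hoxb3, Hoxb4 and Hoxb5, genes of the hindbrain, neck and upper trunk, had GHMT medians of 5.00, 3.47 and 1.64 TPM, against UI medians of 5.03, 2.64 and 1.31 TPM. Hoxb6 and Hoxb7, trunk genes, stood at 6.45 and 5.59 TPM in GHMT and 3.92 and 3.67 TPM in UI libraries. Hoxb8 broke this stretch of active genes. It had 0.656 TPM in GHMT and 0.388 TPM in UI libraries, while Hoxb9, the next gene and the last of the contiguous cluster, had 11.4 TPM in GHMT and 5.74 TPM in UI libraries. Hoxb13, which lies far from the rest of the cluster, was listed at 0 in 6 of 18 GHMT and 13 of 18 UI libraries, and its highest level was 0.135 TPM in GHMT and 0.0274 TPM in UI libraries.

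The highest Hox gene of all lay in the Hoxc cluster. Hoxc6, a gene of the lower neck and chest, ran from 17.6 to 47.2 TPM in GHMT libraries (median 28.9) and from 21.4 to 39.6 TPM in UI libraries (median 27.8). Its neighbours Hoxc4 and Hoxc5 had medians of 3.07 and 4.90 TPM in GHMT and 4.51 and 5.92 TPM in UI libraries. Hoxc8, a chest gene, stood at 10.2 TPM in GHMT and 9.51 TPM in UI libraries. The level stepped down beyond it. Hoxc9 and Hoxc10 had 3.56 and 5.22 TPM in GHMT and 4.01 and 6.24 TPM in UI libraries, and Hoxc11, Hoxc12 and Hoxc13 had GHMT medians of 0.393, 0.115 and 0.869 TPM, against UI medians of 0.889, 0.331 and 0.645 TPM.

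The Hoxd cluster was led by Hoxd8, and its posterior end separated the arms. Hoxd8, a trunk gene, ran from 10.6 to 38.1 TPM in GHMT libraries (median 18.6) and from 16.9 to 33.2 TPM in UI libraries (median 23.9), next in rank to Hoxc6 in both arms. Hoxd1 was listed at 0 in 9 of 18 GHMT and 8 of 18 UI libraries. Hoxd3, Hoxd4 and Hoxd9 had medians of 0.576, 3.54 and 1.97 TPM in GHMT and 1.63, 6.75 and 3.97 TPM in UI libraries, lower in GHMT for each. From Hoxd10 onward the order turned round: Hoxd10, Hoxd11, Hoxd12 and Hoxd13, genes of the lower limb segments and digits, had GHMT medians of 3.55, 1.88, 0.377 and 6.69 TPM, against UI medians of 1.34, 0.706, 0.0455 and 0.494 TPM. Tests were limited to genes at 1 TPM in at least 3 libraries of a table, which 32 Hox genes reached in the GHMT table and 29 in the UI table. Hoxa4, Hoxb1, Hoxb13, Hoxc12, Hoxd1 and Hoxd12 reached it in neither. Hoxa13, Hoxb8, Hoxd11 and Hoxd13 were tested in GHMT cells only, and Hoxc11 in UI cells only.

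**Figure D1:**
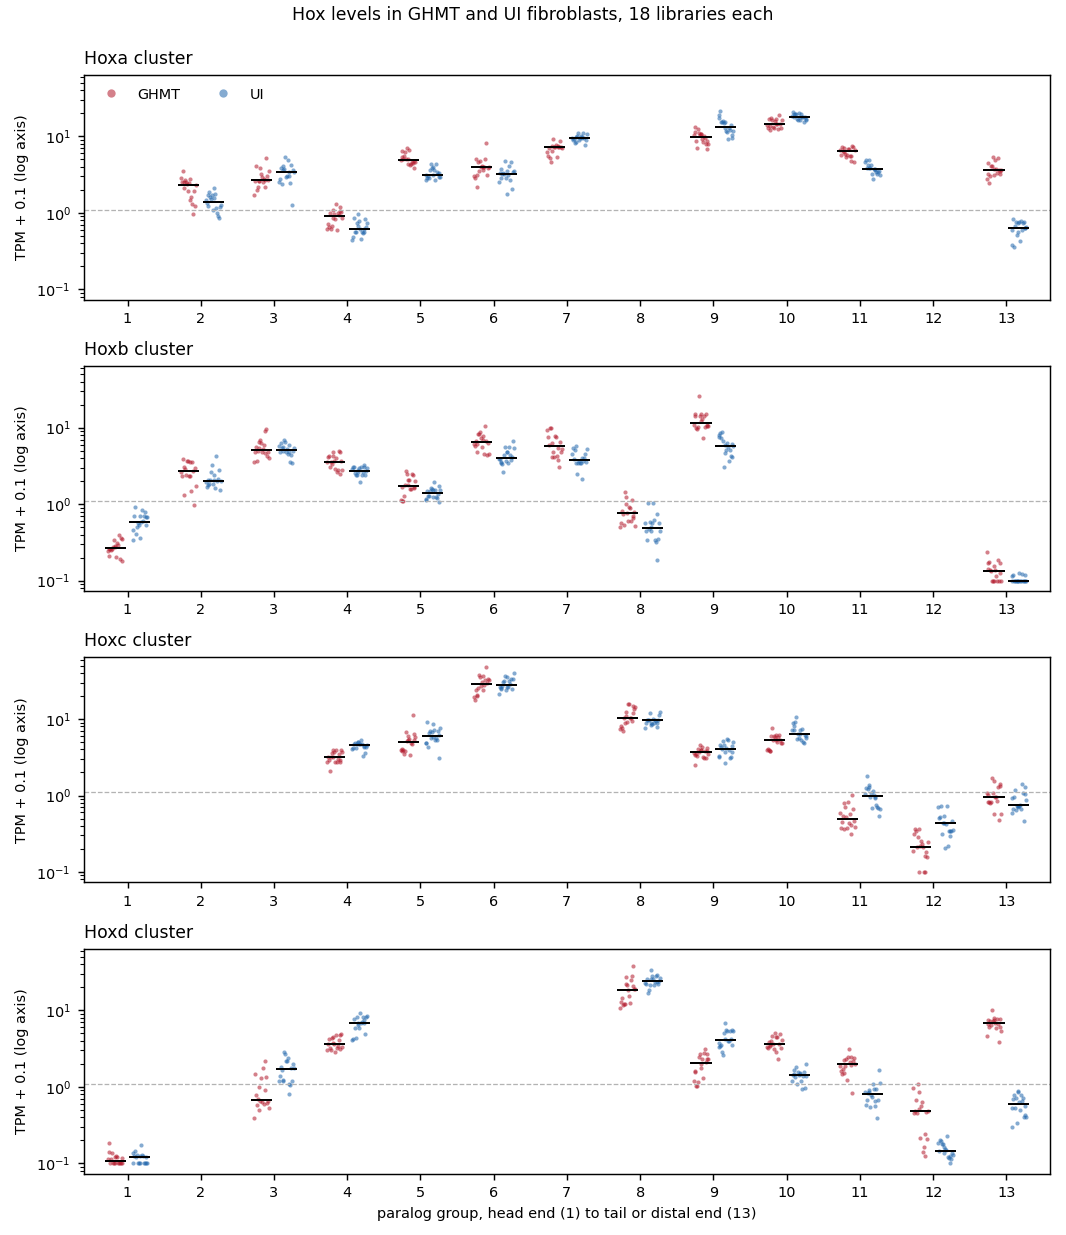
TPM plus 0.1 on a log axis for 38 Hox genes in their place by paralog group, 1 panel per cluster, with a point for each of 18 GHMT (red) and 18 UI (blue) libraries, a bar at the median and a dashed line at 1 TPM. Hoxc6 and Hoxd8 are highest in both arms, and the arms separate at Hoxa13, Hoxd10 and Hoxd13.

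The posterior limb genes Hoxa13, Hoxd10 and Hoxd13 were the tested Hox genes whose GHMT and UI libraries did not overlap over all days and treatments. Hoxa13 had 2.63, 3.10 and 4.42 TPM in GHMT DMSO libraries at day 2 and 2.36, 2.90 and 4.05 TPM in untreated GHMT libraries. In UI cells of that day it had 0.276, 0.497 and 0.739 TPM with DMSO and 0.253, 0.575 and 0.650 TPM untreated. Over all days it ran from 2.36 to 5.31 TPM in GHMT and from 0.253 to 0.739 TPM in UI libraries, so that every GHMT library lay above every UI library. Hoxd13 had 4.53, 6.62 and 7.42 TPM with DMSO and 5.97, 7.18 and 6.41 TPM untreated in GHMT cells at day 2. At day 21 it had 7.68, 6.60 and 3.78 TPM with DMSO and 7.57, 5.96 and 5.28 TPM untreated in GHMT cells. The 18 UI libraries lay below all of these, at 0.195 to 0.788 TPM. The ratio of the GHMT median to the UI median was 13.5 for Hoxd13 and 6.55 for Hoxa13, with no test between tables. Hoxd10 ran from 2.2 to 5.02 TPM in GHMT and from 0.834 to 1.90 TPM in UI libraries, a median ratio of 2.64.

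These were 3 of the 33 Hox genes that reached 1 TPM in at least 3 libraries of either table, and 4.56% of the 21801 genes at that level were separate over all libraries, 3.66% with GHMT higher and 0.908% with GHMT lower. Hoxa13, Hoxb8, Hoxd11 and Hoxd13 entered the 33 through their GHMT libraries alone and Hoxc11 through its UI libraries alone, so that a difference was built into their selection. Nothing is therefore read from this count or from the counts by day that follow. At day 2 alone, with 6 libraries per arm, 20 of the 33 were separate, against 30.6% of all genes. Of these, 11 were higher in GHMT cells (17.5% of all genes) and 9 were lower (13.1% of all genes). The higher ones were Hoxa2, Hoxa5, Hoxa11, Hoxa13, Hoxb4, Hoxb6, Hoxb7, Hoxb9, Hoxd10, Hoxd11 and Hoxd13, and the lower ones were Hoxa7, Hoxa9, Hoxa10, Hoxc4, Hoxc5, Hoxc10, Hoxc11, Hoxd8 and Hoxd9. The higher genes held no Hoxc gene and the lower genes no Hoxb gene, which describes this list alone. Hoxb1, below the level for testing and outside these counts, was lower in every GHMT library at day 2 (0.109 to 0.163 TPM, against 0.235 to 0.822 TPM in UI libraries). It was also lower in every GHMT library than in every UI library at day 7 and at day 21. At day 7 the separate genes numbered 11, against 25.0% of all genes, with 8 higher in GHMT cells (18.5%) and 3 lower (6.47%). At day 21 they numbered 7, against 17.5% of all genes, with 5 higher (14.3%) and 2 lower (3.21%). On each of the 3 days Hoxa11, Hoxa13, Hoxb9, Hoxd10 and Hoxd13 were higher and Hoxd9 was lower in every GHMT library than in every UI library, and Hoxd4 was lower at days 7 and 21.

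Genes outside the Hox clusters separated with the arms as well, and those given here were chosen after their values were seen. Among 32 regional transcription factors of mesenchyme at the level for testing, 5 were higher in every GHMT library (3.66% of all genes) and 3 were lower (0.908%). Lhx9, a LIM-homeodomain factor of the outgrowing limb, ran from 2.82 to 7.52 TPM in GHMT and from 0.483 to 1.15 TPM in UI libraries. Shox2, a factor of the upper limb, ran from 7.22 to 14.6 TPM in GHMT and from 25.8 to 34.6 TPM in UI libraries. Genes tied to embryo sex also differed. Ddx3y, a Y-linked gene, ran from 13.3 to 34.5 TPM in GHMT and from 6.24 to 9.41 TPM in UI libraries, with no overlap. Xist, transcribed from the inactive X chromosome, ran from 18.4 to 93.9 TPM in GHMT and from 70.8 to 154 TPM in UI libraries. The part of any of these in the Hox levels was not tested.

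**Figure D2:**
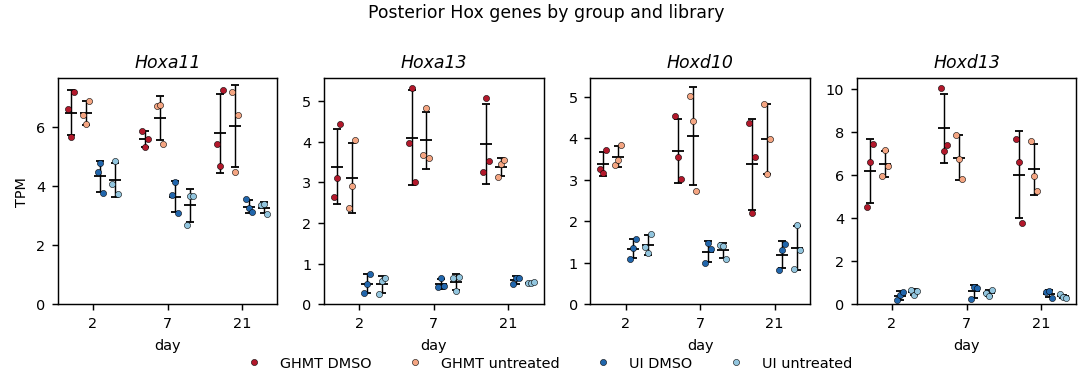
TPM of Hoxa11, Hoxa13, Hoxd10 and Hoxd13 at days 2, 7 and 21, with a point per library and the mean ± SD of 3 libraries for GHMT DMSO, GHMT untreated, UI DMSO and UI untreated cells. For Hoxa13, Hoxd10 and Hoxd13 every GHMT library lies above every UI library.

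DMSO was compared with no treatment in each arm at each day. No Hox gene passed the unpaired test in any of the 6 comparisons. This fit did not pair libraries by replicate number. With that number as a block shared by all days, Hoxb3 was called in GHMT cells at day 21 (adjusted p = 0.0439, limma). In GHMT cells limma called 0 of 32 Hox genes at day 2, when 0.00485% of all genes tested were called, 0 of 32 at day 7 (0.708%) and 0 of 32 at day 21 (4.59%). A gene was called at a Benjamini-Hochberg adjusted p under 0.05. At an unadjusted p under 0.05 there were 0, 2 and 4 Hox genes at days 2, 7 and 21, beside 3.42%, 15.6% and 24.1% of all genes. The median log2 difference of the 32 genes was 0.01, 0.14 and 0.10, beside 0.04, 0.07 and −0.06 over all 20618 genes tested. These differences are on the log2(TPM + 1) scale, which understates the change of low genes. The 95% intervals of 32 Hox genes lay within 1 log2 unit of no change at day 2, those of 31 at day 7 and those of 28 at day 21.

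Hoxd8 came nearest to a call in GHMT cells at day 21. At day 7 it had 27.6, 22.0 and 21.4 TPM with DMSO, against 18.4, 15.3 and 12.3 TPM untreated. At day 21 it had 25.1, 27.9 and 38.1 TPM with DMSO, against 20.8, 19.0 and 18.9 TPM untreated. The DMSO libraries lay above the untreated ones on both days. The log2 differences were 0.61 ± 0.17 (SE, n = 3 per group, adjusted p = 0.114, limma) at day 7 and 0.59 ± 0.17 (adjusted p = 0.0587, limma) at day 21. At day 2 the libraries overlapped, with 10.6, 12.9 and 14.5 TPM with DMSO and 11.6, 11.8 and 12.2 TPM untreated. Hoxb3, a gene of the hindbrain and neck, had 4.57, 9.0 and 9.59 TPM with DMSO at day 21, against 4.17, 4.76 and 3.93 TPM untreated. One DMSO library, replicate 1, lay within the untreated range, and the log2 difference was 0.67 ± 0.22 (adjusted p = 0.0879, limma). Without GHMT DMSO day 21 replicate 1 the comparison called 3 genes, Hoxb3 (0.96, adjusted p = 0.00523, limma), Hoxb4 and Hoxd8 (0.71, adjusted p = 0.0204, limma). Without the 3 libraries that stood apart it called neither Hoxb3 (0.50, adjusted p = 0.327, limma) nor Hoxd8 (0.42, adjusted p = 0.206, limma).

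Hoxc8 and Hoxd3, both at an unadjusted p under 0.05 in GHMT cells at day 21, lay on opposite sides of no change. Hoxc8 had 10.3, 9.22 and 12 TPM with DMSO at day 21, against 14.8, 13.5 and 14.5 TPM untreated (−0.41 ± 0.17, adjusted p = 0.164, limma). For Hoxc8 every DMSO library lay below the untreated ones. Hoxd3, a gene of the neck, had 2.06, 0.816 and 1.24 TPM with DMSO at day 21, against 0.507, 0.545 and 0.427 TPM untreated, with the DMSO libraries higher (0.63 ± 0.28, adjusted p = 0.181, limma). The posterior gene Hoxa13 differed by 0.10, 0.00 and 0.16 log2 units between DMSO and untreated GHMT cells at days 2, 7 and 21, less than its SE of 0.22 each time. Cardiomyocyte markers moved beside these values: their sum was 3212 to 5126 TPM with DMSO and 1683 to 2213 TPM untreated at day 21, and 3 of the 6 rose, when 4.59% of all genes were called. The part of this in the Hox differences was not tested.

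In UI cells limma called 0 of 29 Hox genes at day 2 (0.285% of all genes), 0 at day 7 (1.69%) and 0 at day 21 (2.36%), and 2, 3 and 2 had an unadjusted p under 0.05, beside 11.4%, 15.7% and 13.63% of all genes. All 29 lay within 1 log2 unit of no change by their 95% intervals on each day. Hoxa9, a lumbar gene, had 18.7, 17.2 and 21.2 TPM with DMSO at day 2, against 15.4, 15.4 and 15.8 TPM untreated. At day 7 it had 14.6, 15.3 and 12.8 TPM with DMSO, against 11.7, 11.3 and 9.03 TPM untreated. At day 21 it had 12.6, 12.1 and 13.9 TPM with DMSO, against 10.3, 9.51 and 11.8 TPM untreated. The DMSO libraries lay above the untreated ones on all 3 days, and the log2 differences at days 2, 7 and 21 were 0.27, 0.39 and 0.27 (each ± 0.11, adjusted p = 0.381, 0.101 and 0.301, limma). Hoxd8 differed by 0.30, 0.28 and 0.15 log2 units on these days (each ± 0.12, adjusted p = 0.359, 0.271 and 0.695, limma). Hoxc8 had 9.43, 7.83 and 8.80 TPM with DMSO at day 21, against 9.6, 11.0 and 12.4 TPM untreated, with the DMSO libraries lower (−0.31 ± 0.12, adjusted p = 0.231, limma).

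The DMSO differences of the arms were tested against each other, each taken within its own table, and limma called 0 of 33 Hox genes at day 2 (0.00917% of all genes), day 7 (0.119%) or day 21 (0.615%). An unadjusted p under 0.05 was reached by 0, 2 and 3 of them, beside 1.34%, 8.21% and 13.3% of all genes. At day 21 the DMSO difference of Hoxd3 was 0.93 ± 0.35 log2 units higher in GHMT than in UI cells (adjusted p = 0.257, limma), and that of Hoxb3 was 0.75 ± 0.27 higher (adjusted p = 0.239, limma). At day 7 the DMSO difference of Hoxb9 was 0.80 ± 0.33 higher (adjusted p = 0.563, limma). Without GHMT DMSO day 21 replicate 1, Hoxb3 was called at day 21. The DMSO difference at day 21 was also set against that at day 2 within each arm. There limma called 0 of 32 Hox genes in GHMT cells (0.0679% of all genes, 2 Hox genes at an unadjusted p under 0.05) and 0 of 29 in UI cells (0.035%, 0 Hox genes).

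**Figure D3:**
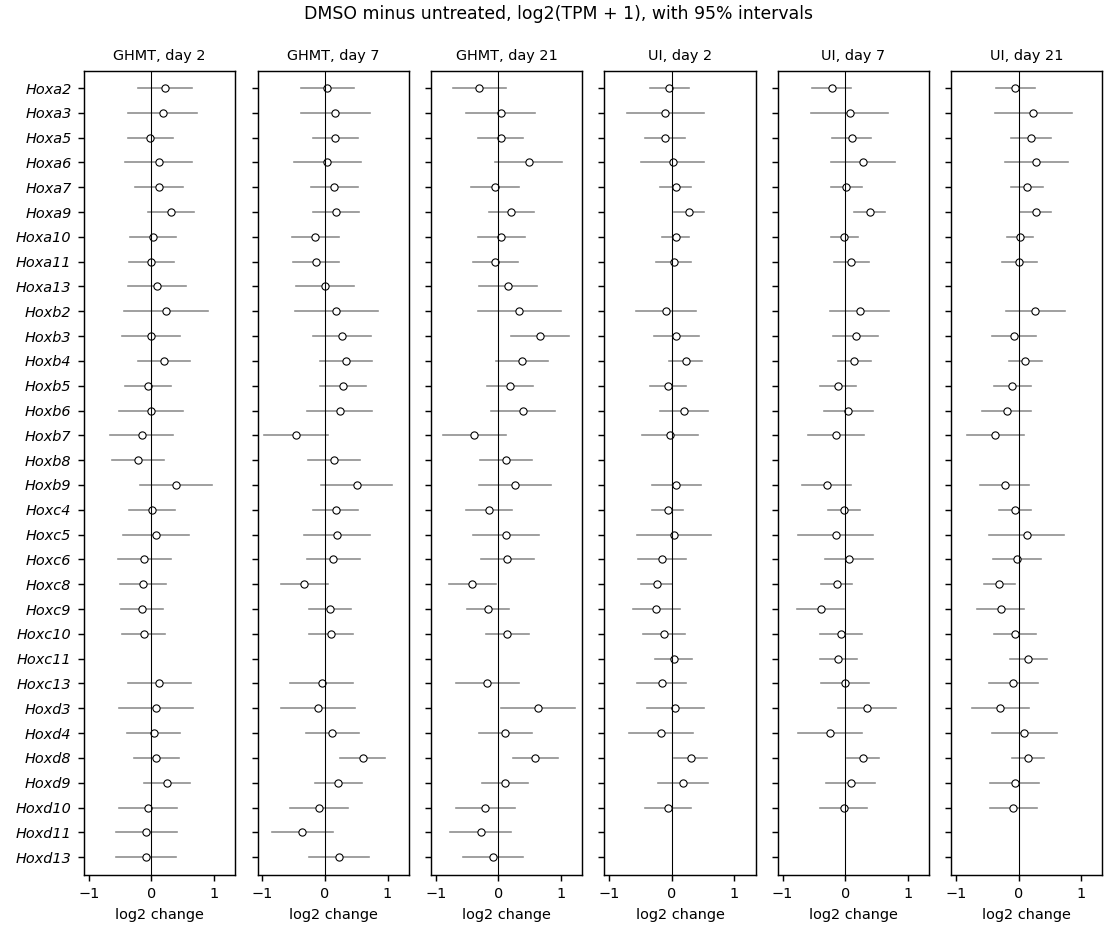
Log2 differences of DMSO minus untreated on the log2(TPM + 1) scale for tested Hox genes in positional order, by arm and day, with 95% intervals from limma. No point is filled, since no Hox gene reached an adjusted p under 0.05 in this unpaired fit. In GHMT cells at day 21 Hoxb3 lies farthest from no change, at 0.67.

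From day 2 to day 21, 7 of 32 Hox genes were called in GHMT cells with DMSO, beside 37.6% of all genes tested. Hoxb3, Hoxb5, Hoxc6, Hoxd8 and Hoxd9 rose (5 of 32, against 21.4% of all genes), and Hoxa2 and Hoxb7 fell (2 of 32, against 16.2%). Hoxd8 had 10.6, 12.9 and 14.5 TPM at day 2, 27.6, 22.0 and 21.4 TPM at day 7 and 25.1, 27.9 and 38.1 TPM at day 21, and the libraries of day 21 lay above those of day 2. Its log2 change of 1.19 ± 0.17 (adjusted p = 0.000163, limma) was the largest among the 32 Hox genes. Hoxd9, its neighbour on the chromosome, had 2.67, 3.05 and 2.04 TPM at day 21, against 1.08, 1.49 and 1.47 TPM at day 2 (0.61 ± 0.17, adjusted p = 0.0136, limma). Hoxc6 had 28.2, 32.2 and 47.2 TPM at day 21, against 19.1, 17.6 and 24 TPM at day 2 (0.77 ± 0.20, adjusted p = 0.00756, limma). In both genes the days did not overlap.

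In the Hoxa and Hoxb clusters 4 genes were called in the same cells. Hoxa2, which sets the identity of a branchial arch, had 1.49, 1.20 and 0.857 TPM at day 21, against 2.78, 2.46 and 3.39 TPM at day 2 (−0.83 ± 0.20, adjusted p = 0.00543, limma). Hoxb7 had 3.73, 5.27 and 3.0 TPM at day 21, against 9.25, 7.55 and 5.91 TPM at day 2 (−0.78 ± 0.24, adjusted p = 0.0184, limma). In both genes every library of day 21 lay below those of day 2. Hoxb3 had 4.57, 9.0 and 9.59 TPM at day 21, against 3.50, 4.70 and 5.47 TPM at day 2 (0.61 ± 0.22, adjusted p = 0.0398, limma). Hoxb5, a gene of the upper trunk, had 1.5, 2.40 and 2.31 TPM at day 21, against 1.04, 0.993 and 1.56 TPM at day 2 (0.48 ± 0.17, adjusted p = 0.0397, limma). For Hoxb3 and Hoxb5 the days overlapped, and both calls were lost without any 1 of GHMT DMSO day 2 replicates 1 and 2 and day 21 replicates 2 and 3. The call of Hoxd9 was lost without GHMT DMSO day 2 replicate 1 or day 21 replicate 2. That of Hoxb7 was lost without GHMT DMSO day 2 replicate 1, without day 21 replicate 3 or without the 3 libraries that stood apart. The calls of Hoxa2, Hoxc6 and Hoxd8 held with each of the 6 libraries left out. Without GHMT DMSO day 2 replicate 1 the count was 3 genes, and without GHMT DMSO day 21 replicate 3, a library that stood apart, it was 4.

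Untreated GHMT cells also had Hoxd8 and Hoxd9 rise. Here 3 of 32 Hox genes were called, all upward, beside 24.6% of all genes and 17.9% that rose (6.7% fell). Hoxd8 had 11.6, 11.8 and 12.2 TPM at day 2, 18.4, 15.3 and 12.3 TPM at day 7 and 20.8, 19.0 and 18.9 TPM at day 21 (day 21 minus day 2 0.67 ± 0.17, adjusted p = 0.0106, limma). Hoxd9 had 2.22, 2.56 and 2.2 TPM at day 21, against 0.915, 0.941 and 1.07 TPM at day 2 (0.75 ± 0.17, adjusted p = 0.00672, limma). Both genes held their call with each of the 6 libraries left out. Hoxc8, a chest gene, had 14.8, 13.5 and 14.5 TPM at day 21, against 6.98, 10.1 and 8.86 TPM at day 2 (0.67 ± 0.17, adjusted p = 0.0123, limma), and lost its call without GHMT untreated day 2 replicate 1. Hoxc6 had 29.7, 32.9 and 32.2 TPM at day 21, against 20.7, 19.96 and 25.2 TPM at day 2, without overlap (0.51 ± 0.20, adjusted p = 0.0709, limma). Without GHMT untreated day 2 replicate 3 the count was 5.

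In UI cells other Hox genes passed the test over the same weeks. Hoxd9 was not called there, though its day 21 libraries also lay above those of day 2. With DMSO it had 3.86, 5.26 and 4.08 TPM at day 21, against 3.21, 3.68 and 3.29 TPM at day 2. Untreated it had 3.46, 5.37 and 5.23 TPM at day 21, against 3.44, 2.72 and 2.51 TPM at day 2. Hoxd8, also not called, had 21.8, 24.1 and 26.1 TPM untreated at day 21, against 16.9, 18.6 and 21.6 TPM at day 2. With DMSO, 2 of 29 Hox genes were called, both downward, beside 15.1% of all genes and 10.2% that fell. Hoxa9 had 12.6, 12.1 and 13.9 TPM at day 21, against 18.7, 17.2 and 21.2 TPM at day 2 (−0.53 ± 0.11, adjusted p = 0.00662, limma). Hoxb9, a gene of the lower ribs, had 3.58, 4.96 and 4.23 TPM at day 21, against 7.44, 7.91 and 8.30 TPM at day 2 (−0.76 ± 0.19, adjusted p = 0.0131, limma). In both genes every library of day 21 lay below those of day 2. Untreated UI cells had 3 of 29 called, beside 11.0% of all genes. Hoxa9 and Hoxc11 fell (2 of 29, against 5.84% of all genes) and Hoxb6 rose (1 of 29, against 5.16%). Hoxa9 had 10.3, 9.51 and 11.8 TPM at day 21, against 15.4, 15.4 and 15.8 TPM at day 2 (−0.52 ± 0.11, adjusted p = 0.0094, limma). Hoxc11, a sacral gene, had 0.590, 0.442 and 0.558 TPM at day 21, against 1.11, 1.27 and 1.17 TPM at day 2 (−0.51 ± 0.14, adjusted p = 0.028, limma). Hoxb6, a trunk gene, had 4.0, 6.51 and 5.33 TPM at day 21, against 3.49, 3.23 and 2.53 TPM at day 2 (0.61 ± 0.18, adjusted p = 0.0451, limma). For these genes too the days did not overlap. With 1 of the 6 libraries left out at a time, Hoxb6 and Hoxc11 were each called once, without UI untreated day 21 replicate 1. Without any 1 of UI untreated day 2 replicates 2 and 3 and day 21 replicates 2 and 3 the count was 1, and when the 6 libraries of either UI comparison were fitted alone it was 0.

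**Figure D4:**
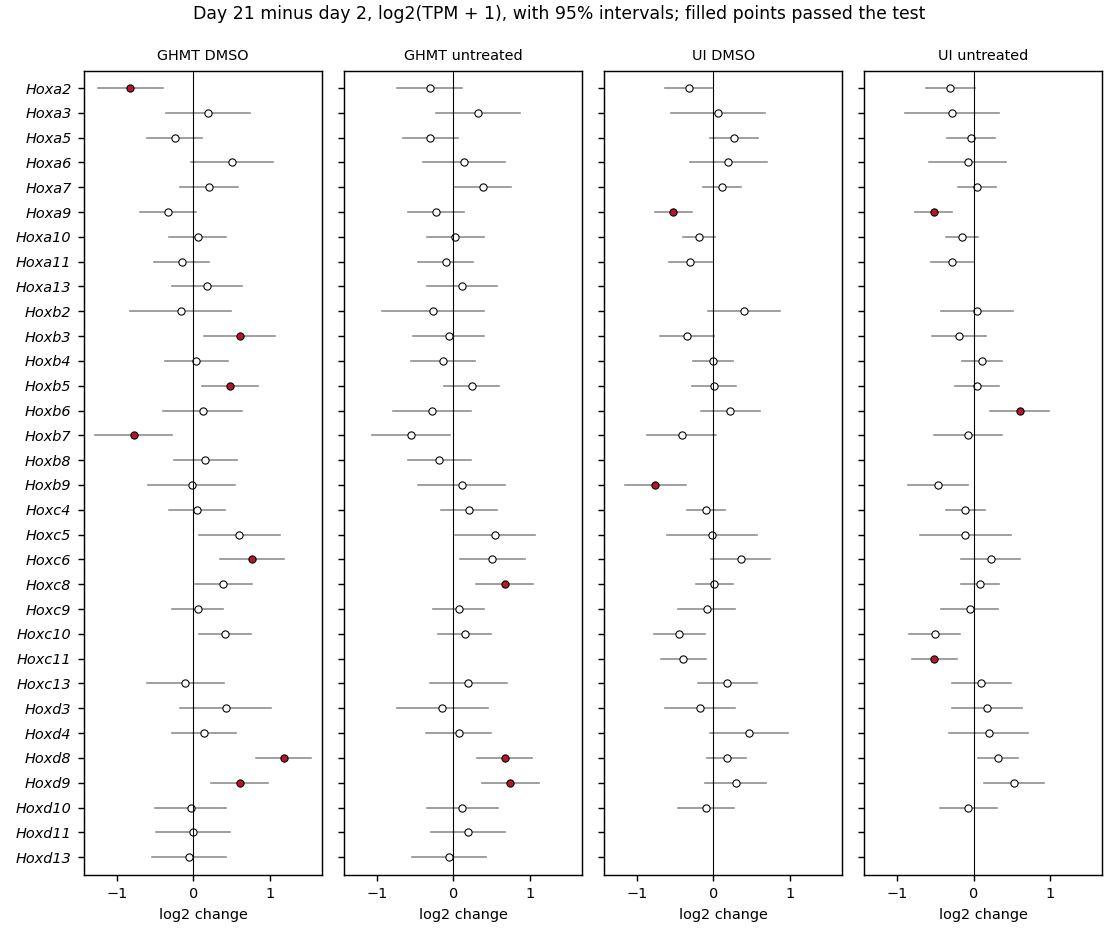
Log2 change from day 2 to day 21 on the log2(TPM + 1) scale for tested Hox genes in positional order in GHMT DMSO, GHMT untreated, UI DMSO and UI untreated cells, with 95% intervals from limma and filled points at an adjusted p under 0.05. Hoxd8 and Hoxd9 are filled and positive in both GHMT panels, and Hoxa9 is filled and negative in both UI panels.

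The change over time was then compared between arms, each change taken within its own table. With DMSO, 3 of 33 Hox genes changed differently, all with the higher change in GHMT cells, beside 24.3% of all genes and 15.9% in that direction (8.39% in the other). The difference was 1.02 ± 0.21 log2 units for Hoxd8 (adjusted p = 0.00114, limma), which in UI DMSO cells had 28.0, 28.6 and 23.7 TPM at day 21, against 22.7, 22.3 and 25.9 TPM at day 2. Hoxc10, a lumbar gene, had 4.84, 5.69 and 6.16 TPM in GHMT DMSO cells at day 21, against 3.88, 4.01 and 3.83 TPM at day 2. In UI DMSO cells Hoxc10 had 7.29, 4.96 and 4.70 TPM at day 21, against 7.14, 8.77 and 7.96 TPM at day 2. Day 21 was higher in every GHMT library, and the UI days overlapped (difference 0.86 ± 0.22, adjusted p = 0.00654, limma). Both calls held with each of the 12 libraries left out. Hoxb3 had 4.70, 3.51 and 4.26 TPM in UI DMSO cells at day 21, against 5.69, 4.75 and 6.23 TPM at day 2, with a difference of 0.96 ± 0.27 (adjusted p = 0.0131, limma). Its call was lost without GHMT DMSO day 21 replicate 3 (0.79, adjusted p = 0.0504, limma).

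In untreated cells 2 of 33 Hox genes changed differently between arms, beside 14.5% of all genes. Hoxd8 was not called in this comparison. Hoxd9 and Hoxa9 were called neither here nor with DMSO. Hoxc10 had the higher change in GHMT cells (0.65 ± 0.22, adjusted p = 0.0453, limma; 10.8% of all genes in that direction). Hoxc10 had 5.26, 4.77 and 4.75 TPM in untreated GHMT cells at day 21, against 3.72, 3.72 and 5.87 TPM at day 2. In untreated UI cells it had 6.08, 5.63 and 5.81 TPM at day 21, against 7.09, 8.93 and 10.4 TPM at day 2. The days overlapped in GHMT cells, and day 21 was lower in every UI library. Hoxb6 had the lower change in GHMT cells (−0.89 ± 0.30, adjusted p = 0.0492, limma; 3.66% of all genes), with 4.26, 6.25 and 4.43 TPM at day 21, against 6.07, 4.72 and 8.12 TPM at day 2. With each of the 12 libraries left out, Hoxb6 was called 3 times and Hoxc10 2 times. The count was 0 without any 1 of GHMT untreated day 2 replicate 1, GHMT untreated day 21 replicates 1 and 3, UI untreated day 2 replicates 2 and 3 and UI untreated day 21 replicate 2, it was 2 without GHMT untreated day 2 replicate 2, and it was 1 without any 1 of the other 5. The median of these arm differences over the 33 Hox genes was 0.15 log2 units with DMSO and 0.18 untreated, beside 0.18 and 0.24 over all genes.

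**Figure D5:**
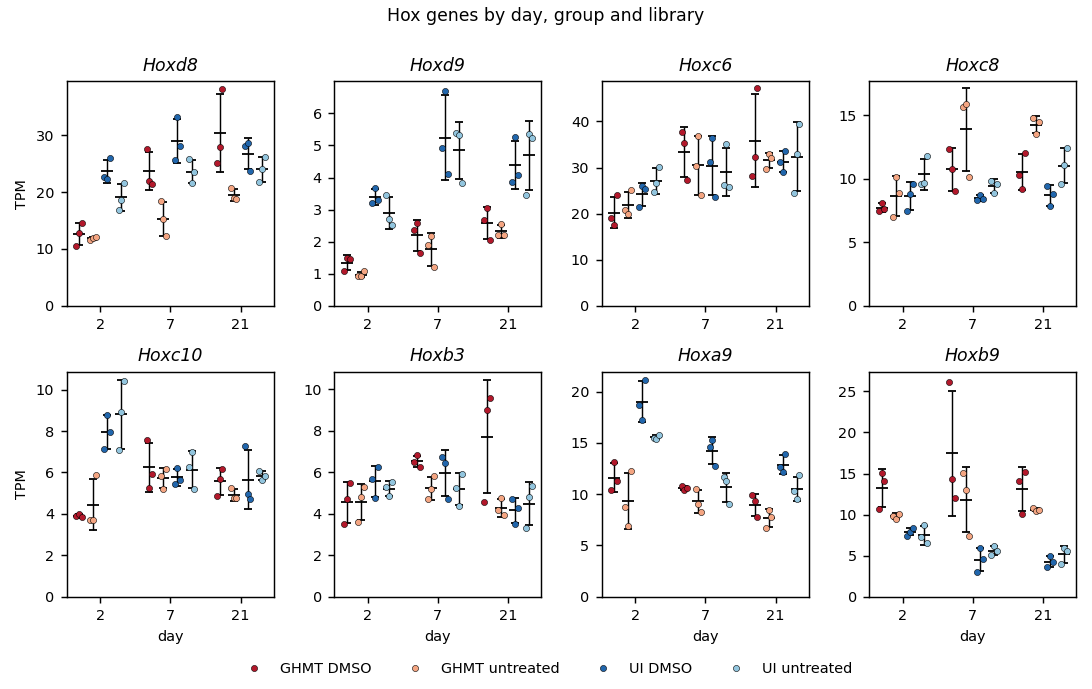
TPM of Hoxd8, Hoxd9, Hoxc6, Hoxc8, Hoxc10, Hoxb3, Hoxa9 and Hoxb9 at days 2, 7 and 21, with a point per library and the mean ± SD of 3 libraries for GHMT DMSO, GHMT untreated, UI DMSO and UI untreated cells. Hoxd8 is higher at day 21 than at day 2 in every library of both GHMT groups and of UI untreated cells. Hoxa9 is lower in every library of both UI groups and of GHMT DMSO cells.

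Markers of cell state moved beside the changes over time. Cardiomyocyte markers summed to 3212 to 5126 TPM in GHMT DMSO libraries at day 21, against 682 to 1166 TPM at day 2. The 4 cell cycle markers summed to 6.16 to 21.6 TPM there at day 21, against 127 to 249 TPM at day 2, and all 4 fell (16.2% of all genes). The 4 mesothelial markers summed to 263 to 344 TPM at day 21, against 106 to 165 TPM at day 2, and 3 of them rose (21.4% of all genes). In UI DMSO libraries the fibroblast sum was 7856 to 9352 TPM at day 21, against 12256 to 19048 TPM at day 2, and 3 of the 8 fell (10.2% of all genes). The other sums moved there as in GHMT DMSO cells, apart from the cardiomyocyte markers. UI DMSO cell cycle sums were 11.4 to 35.5 TPM at day 21, against 42.4 to 82.3 TPM at day 2. Mesothelial sums were 291 to 388 TPM at day 21, against 54.4 to 126 TPM at day 2. The part of these in the Hox changes was not tested.

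Hox proteins bind DNA together with TALE homeodomain partners of the Pbx, Meis and Pknox families, and all 11 listed were tested in both arms. Pknox2 rose with DMSO in GHMT cells, with 13.2 ± 1.73 TPM with DMSO against 6.22 ± 1.15 TPM untreated at day 7 (SD, n = 3 each; log2 difference 0.98 ± 0.16, adjusted p = 0.0211, limma) and 14.3 ± 1.23 TPM with DMSO against 8.25 ± 1.59 TPM untreated at day 21 (0.74 ± 0.16, adjusted p = 0.0217, limma). Its DMSO difference at day 7 was 1.04 ± 0.21 higher in GHMT than in UI cells (adjusted p = 0.0346, limma). Meis1 rose with DMSO in UI cells at day 21, with 20.03 ± 1.96 TPM with DMSO against 14.3 ± 1.57 TPM untreated (0.46 ± 0.11, adjusted p = 0.0417, limma). Over time 3 rose and 1 fell (21.4% and 16.2% of all genes) in GHMT DMSO cells and 2 rose and 2 fell (17.9% and 6.7% of all genes) in untreated GHMT cells, with Pknox2 up and Meis1 down in both. In UI cells 1 rose and 2 fell (4.86% and 10.2% of all genes) with DMSO and 0 rose and 3 fell (5.16% and 5.84% of all genes) untreated, with Tgif1, a TALE repressor, down in both.

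Polycomb complexes keep Hox genes silent through histone methylation and ubiquitination, and Trithorax-type methyltransferases and histone demethylases keep them active. Of 25 Polycomb genes, 6 rose and 6 fell (21.4% and 16.2% of all genes) in GHMT DMSO cells between day 2 and day 21, and 4 rose and 3 fell (17.9% and 6.7% of all genes) in untreated GHMT cells. Cbx7, a chromobox reader, rose to 10.5 ± 0.997 TPM at day 21 in GHMT DMSO cells, against 2.68 ± 0.854 TPM at day 2 (1.66 ± 0.35, adjusted p = 0.00262, limma). Cbx7 also rose in untreated GHMT cells (1.47 ± 0.35, adjusted p = 0.00836, limma) and in UI DMSO cells (1.25 ± 0.35, adjusted p = 0.0291, limma). Eed, which reads and supports the methylation mark, fell in GHMT DMSO cells to 29.7 ± 12 TPM at day 21, against 75.7 ± 5.72 TPM at day 2 (−1.40 ± 0.23, adjusted p = 0.000499, limma). In UI cells 1 rose and 4 fell (4.86% and 10.2% of all genes) with DMSO and 0 rose and 4 fell (5.16% and 5.84% of all genes) untreated, where Ezh2, the methyltransferase itself, was among those that fell (−0.75 ± 0.14, adjusted p = 0.00357, limma). Of 14 Trithorax and demethylase genes, 6 rose and 4 fell (21.4% and 16.2% of all genes) in GHMT DMSO cells and 5 rose and 2 fell (17.9% and 6.7% of all genes) in untreated GHMT cells. Kdm6b, a demethylase that removes the Polycomb mark, rose with DMSO (1.26 ± 0.28, adjusted p = 0.00312, limma) and untreated (1.07 ± 0.28, adjusted p = 0.0121, limma). In UI cells 0 rose and 1 fell (4.86% and 10.2% of all genes) with DMSO and 0 rose and 1 fell (5.16% and 5.84% of all genes) untreated. Between DMSO and no treatment the genes called from these 2 lists were Pcgf6 in UI cells at day 7 (0.56 ± 0.10, adjusted p = 0.011, limma) and Psip1 in UI cells at day 21 (0.41 ± 0.08, adjusted p = 0.0109, limma).

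Retinoic acid sets the anterior boundaries of Hox expression in the embryo, and Cdx factors and Gdf11 act on the more posterior genes. Of 20 listed genes 14 were tested in each arm, and Cdx1 did not exceed 0.0514 TPM in GHMT or 0.0288 TPM in UI libraries. With DMSO, 2 rose and 1 fell in GHMT cells at day 21, when 4.59% of all genes were called. Rarb, a retinoic acid receptor, had 5.45 ± 0.260 TPM with DMSO, against 2.40 ± 0.315 TPM untreated (0.93 ± 0.17, adjusted p = 0.00974, limma). Aldh1a2, which makes retinoic acid, had 2.04 ± 0.484 TPM with DMSO, against 4.76 ± 1.56 TPM untreated (−0.90 ± 0.23, adjusted p = 0.0378, limma). Over time 5 rose and 2 fell (21.4% and 16.2% of all genes) in GHMT DMSO cells and 4 rose and 2 fell (17.9% and 6.7% of all genes) in untreated GHMT cells. In UI cells 1 rose and 3 fell (4.86% and 10.2% of all genes) with DMSO and 1 rose and 3 fell (5.16% and 5.84% of all genes) untreated. Crabp2, a retinoic acid carrier, fell by 2.59 log2 units in GHMT DMSO, by 2.40 in untreated GHMT, by 1.85 in UI DMSO and by 2.49 in untreated UI cells.

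Of the other regional transcription factors of mesenchyme, 31 were tested in GHMT cells and 26 in UI cells. Between day 2 and day 21 6 rose and 7 fell (21.4% and 16.2% of all genes) in GHMT DMSO cells and 3 rose and 2 fell (17.9% and 6.7% of all genes) in untreated GHMT cells. Those tested in UI cells gave 1 rise and 3 falls with DMSO (4.86% and 10.2% of all genes) and 1 rise and 2 falls untreated (5.16% and 5.84%). Lmx1b, a factor of the dorsal limb, rose in GHMT cells with DMSO (1.29 ± 0.27, adjusted p = 0.00243, limma) and untreated (1.02 ± 0.27, adjusted p = 0.0149, limma). Tbx4, a hindlimb factor, fell in UI cells with DMSO (−0.42 ± 0.12, adjusted p = 0.0271, limma) and untreated (−0.53 ± 0.12, adjusted p = 0.0113, limma). Among the noncoding RNAs of the clusters, named here for their low levels after these were seen, Hotair did not exceed 0.185 TPM in GHMT or 0.304 TPM in UI libraries, and Hottip, which neighbours Hoxa13, did not exceed 0.299 TPM in GHMT or 0.108 TPM in UI libraries. Of 7 tested in UI cells, Hoxa11os was the one that changed with time, beside 15.1% of all genes with DMSO and 11.0% untreated, and it fell with DMSO (−0.70 ± 0.17, adjusted p = 0.0126, limma) and untreated (−0.75 ± 0.17, adjusted p = 0.0111, limma). Hoxa11, on the other strand, changed by −0.30 ± 0.13 with DMSO and −0.28 ± 0.13 untreated without a call (adjusted p = 0.145 and 0.189, limma). No source used here says whether reads were assigned by strand, so reads of the antisense pairs Hoxa11 and Hoxa11os, Hoxb3 and Hoxb3os, and Hoxd3 and Hoxd3os1 cannot be told apart.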

How the data were processed

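RNA-seq of 36 libraries was analysed from 2 tables, 1 per arm, of TPM values deposited by the authors. Per the submitters' processing notes Trimmomatic, FastQC and kallisto were used; no source used here gives the genome build, annotation or strand setting. Each table holds 50698 entries, of which 97 name no gene and took 0.248 to 4.81% of the TPM, and these stayed out of the tests; 92 entries with a repeated symbol were summed. TPM holds no read depth. Noncoding 7SK RNA took 1.29 to 3.03% of the TPM in GHMT and 2.72 to 6.18% in UI libraries, which bears on all other TPM values.

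A gene was tested where 3 or more libraries of a table reached 1 TPM, on log2(TPM + 1) with limma 3.58.1 (R 4.3.3), with a mean per group and a mean-variance trend, over all 18 libraries of an arm (12 residual degrees of freedom), or over both tables for differences between arms (24). P-values were adjusted by Benjamini-Hochberg over all genes of a comparison and called under 0.05. There were 17 comparisons, and the scripts were tested on simulated data. Alternatives changed the pseudocount, filter, scaling, trend, libraries fitted, or added the replicate number as a block, and left out each library. Same-numbered libraries with and without DMSO deviated together in GHMT cells at day 2 (r 0.194 to 0.345) and day 7 (0.183 to 0.250), where the numbers pair the libraries, and the block changed no Hox call there. Any Hox gene could be named, though some genes' values are not reported here; from each other list, up to 2 called members per direction with the smallest adjusted p. The Hox genes and all lists were chosen with earlier results of these data known. Figures used Python 3.11.15 with matplotlib 3.10.9.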

Additional observations from a re-analysis of the deposited data

Results flagged for a closer look

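The change from day 2 to day 21 differed between GHMT and UI cells for 4 Hox genes, and the difference itself was tested in each case with limma over both tables. These were 3 of 33 with DMSO, beside 24.3% of all genes, and 2 of 33 untreated, beside 14.5%. With DMSO the change was higher in GHMT cells by 1.02 log2 units for Hoxd8 (adjusted p = 0.00114, limma), by 0.96 for Hoxb3 (adjusted p = 0.0131, limma) and by 0.86 for Hoxc10 (adjusted p = 0.00654, limma). In untreated cells it was 0.65 log2 units higher in GHMT cells for Hoxc10 (adjusted p = 0.0453, limma), and for Hoxb6 the GHMT change minus the UI change was −0.89 (adjusted p = 0.0492, limma). With each of the 12 libraries left out, the untreated difference was called 3 times for Hoxb6 and 2 times for Hoxc10. With DMSO, that of Hoxb3 was lost without GHMT DMSO day 21 replicate 3.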

How the results depend on the processing

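Single Hox genes were followed under other settings only in comparisons where the main fit called them or gave a small unadjusted p. Of these values, 359 kept their direction and their side of the threshold, 71 lost a call, 17 gained one and 0 reversed. In GHMT cells at day 21 the DMSO comparison called 0 Hox genes, and 1 (Hoxd8) with a pseudocount of 5, with a filter at 5 TPM, with median ratio scaling or with rescaling to protein-coding genes. In UI cells at day 21 median ratio scaling called 1 (Hoxc8), against 0. From day 2 to day 21 in GHMT DMSO cells the count of 7 was 4 with the filter at 5 TPM, 2 with the 2 groups fitted alone and 4 without the 3 libraries that stood apart, a setting chosen after seeing the data. In untreated GHMT cells the count of 3 was 5 under each of median ratio scaling, the 2 groups alone and without those 3 libraries. In UI DMSO cells the count of 2 was 0 with the groups alone, and in untreated UI cells the count of 3 was 6 with median ratio scaling and 0 with the groups alone. For the arm difference over time, median ratio scaling called 5 with DMSO, against 3. In untreated cells the count of 2 was 1 with a pseudocount of 5, 0 with no filter, 1 with median ratio scaling, 0 with the groups alone and 1 without the 3 libraries. The cause of these shifts was not tested, except that the groups alone leave fewer libraries in the fit. Median ratio scaling moved the median gene by −0.22 to 0.10 log2 units. With each library left out the counts ran from 0 to 3 for DMSO in GHMT cells at day 21, from 3 to 10 for time in GHMT DMSO cells, from 2 to 5 in untreated GHMT cells, from 2 to 3 in UI DMSO cells and from 1 to 4 in untreated UI cells. They ran from 0 to 1 for the arm difference in DMSO effect at day 21, and for the arm difference over time from 2 to 4 with DMSO and from 0 to 2 untreated. The other counts were 0 throughout. With the replicate number as a block, the DMSO comparison in GHMT cells at day 21 called 1 (Hoxb3, 0.67, adjusted p = 0.0439, limma), and the time comparison in untreated UI cells called 5, against 3. The block gave 4 calls, against 3, over time in untreated GHMT cells and 3, against 2, for the untreated arm difference over time, and it left every other count as it was. Same-numbered libraries deviated together at r from 0.0716 to 0.192 in GHMT cells at day 21 and, between days 2 and 21, from −0.0984 to 0.103 in UI cells, under 0.1 for some pairs, so there the numbers were not taken to pair the libraries. In GHMT cells at day 21 every library still correlated best with its own number. Macrophage marker sums followed the number there too. In replicates 1, 2 and 3 they were 74.1, 179 and 28.9 TPM with DMSO and 88.0, 228 and 45.4 TPM untreated. In UI cells every DMSO library also correlated best with its own number. The r ran from 0.0910 to 0.204 at day 2, 0.0769 to 0.150 at day 7 and 0.0248 to 0.249 at day 21. These are hints from the data and not the design. Whether Hoxb3 is called in GHMT cells at day 21 thus depends on how the number is treated. TPM keeps no depth, so counting error for Hox genes near 1 TPM is unknown.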

Other observations

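Within a group many Hox genes were highest or lowest in the same library, and which replicate stood high differed between days. At day 2 replicate 3 had the highest level for 19 of 32 Hox genes in GHMT DMSO, 24 of 32 in untreated GHMT, 16 of 29 in UI DMSO and 15 of 29 in untreated UI cells. At day 7 replicate 3 had the lowest level for 20 of 32 Hox genes in GHMT DMSO, 23 of 32 in untreated GHMT, 19 of 29 in UI DMSO and 14 of 29 in untreated UI cells. At day 21 the summed Hox level in GHMT DMSO cells was 189 TPM in replicate 1, 208 TPM in replicate 2 and 248 TPM in replicate 3. UI untreated day 21 replicate 1 had the lowest level of its group for 20 of 29 Hox genes. Genes of 1 library share its preparation and are not independent, so these counts are descriptions. The same count was not made over all genes, so they are not read as a trait of Hox genes.

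The macrophage markers, in contrast, followed the replicate number on all days in GHMT cells, with sums of 74.1 to 106 TPM in replicate 1, 179 to 249.5 TPM in replicate 2 and 28.9 to 45.4 TPM in replicate 3. Evx2, a homeobox gene that borders the posterior end of the Hoxd cluster, was low, at 0.140 to 0.399 TPM in GHMT and 0.00798 to 0.118 TPM in UI libraries, and is named with its values known. Hoxd12, between Hoxd11 and Hoxd13, ran from 0.0247 to 0.982 TPM in GHMT and from 0 to 0.127 TPM in UI libraries.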
